A study of Mus musculus with 6 samples.

Results

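The FGF-ERK ligands and feedback targets are 8 genes of fibroblast growth factor signalling: the ligand gene Fgf4, the receptor gene Fgfr1, the feedback inhibitor genes Dusp6, Spry2 and Spry4, and the pathway's transcription factor genes Etv4, Etv5 and Egr1. They were taken by name, and every probe set that the array annotation gives to exactly 1 of these genes was kept, which gave 20 of the 45037 probe sets that are not controls. Fgf4 and Spry4 have 4 probe sets each, Fgfr1 and Etv5 have 3 each, Etv4 and Spry2 have 2 each, and Dusp6 and Egr1 have 1 each. Expression was measured on 6 Affymetrix arrays of mouse embryonic stem cells with a 129/B6 hybrid background, grown in medium with leukaemia inhibitory factor. The cells came from 3 clones, each measured once with and once without 4-hydroxytamoxifen (OHT), which was given at 0.8 µM for 24 hours to deplete Rybp. RYBP and YAF2 are related proteins that occur in variant forms of Polycomb repressive complex 1. The Yaf2kd OHT+ group (Yaf2 knockdown, called a mutant in part of the labels, and Rybp depleted) and the Yaf2kd OHT- group (Yaf2 knockdown, Rybp wild type) hold 2 arrays each, from clones 3086 and 3087. The Yaf2wt OHT+ group (Rybp depleted) and the Yaf2wt OHT- group (wild type for both) hold 1 array each, from clone 3031. Each clone was thus its own untreated control, but wild-type Yaf2 rests on a single clone, so Yaf2 status and clone cannot be told apart. No array held OHT-treated cells that keep Rybp, so Rybp depletion and OHT itself cannot be told apart either. The labels do not say whether the OHT- cells received a vehicle, by which allele OHT removes Rybp, how long after the treatment the cells were harvested, or which cultures grew on feeder fibroblasts and which on gelatin.

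FGF4 is secreted by embryonic stem cells and binds FGF receptors on the same cells. The receptors act through the adaptor FRS2, RAS and the RAF and MEK kinases to activate the kinase ERK, which in these cells favours exit from the naive state and, in the blastocyst, the primitive endoderm fate. ERK induces its own inhibitors: DUSP6 is a phosphatase that inactivates ERK in the cytoplasm, and the Sprouty proteins SPRY2 and SPRY4 act on the pathway upstream of ERK. ETV4 and ETV5 are ETS transcription factors of the PEA3 group whose transcription follows FGF signalling, and EGR1 is a zinc-finger factor of the immediate early response.

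All 10 embryonic stem cell markers were well above the dim limit, among them Pou5f1 and Sox2, and their summed intensity lay between 111695 and 117190 on the OHT+ arrays and between 109711 and 114502 on the OHT- arrays. Dppa5a gave the largest part of this sum. Of the 10 markers 6 had a positive OHT difference and 0 passed the test, with Nanog the highest (0.42 ± 0.08, log2) and Lin28a the lowest (-0.40 ± 0.10). A probe set is called dim here where its mean intensity over the 6 arrays was under 61.5, the limit of the lower 40% of probe sets. The summed intensity of the 12 fibroblast markers lay between 5465 and 8402 on the OHT+ arrays and between 4448 and 6267 on the OHT- arrays; it was higher with OHT in each clone, most of it came from Acta2, and Dcn, Lum and Prrx1 were dim. Of these 12 markers 11 had a positive OHT difference and 0 passed the test. The primitive endoderm markers summed to between 890 and 991 with OHT and between 987 and 1095 without it, with Foxa2 and Ttr dim. Yaf2 itself, on probe set 1429839_a_at, was at 276 ± 27.2 on the Yaf2kd arrays (SD, n = 4) and 793 ± 33.6 on the Yaf2wt arrays (SD, n = 2). Yaf2 was read here over both OHT states, in 2 Yaf2kd clones and 1 Yaf2wt clone. Its 2 probe sets differed by -1.52 and -1.41 (log2, Yaf2kd minus Yaf2wt) and did not pass (limma adjusted p 0.163 and 0.167). The 2 Rybp probe sets, annotated jointly to Rybp and its pseudogene, differed by -4.61 and 3.75 (log2, OHT+ minus OHT-; limma adjusted p 1.1e-04 for both), so they separate the treated from the untreated arrays in opposite directions.

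The upstream windows of Fgf4 and Dusp6 are shown because these genes, the ligand and an ERK phosphatase, had probe sets whose OHT+ and OHT- arrays did not overlap, in opposite directions. Each is the 250 bases before the RefSeq start on the gene's own strand (build GRCm38.p6, plus strand for both), at chr7:144861136-144861385 for Fgf4 and at chr10:99262981-99263230 for Dusp6. Capitals mark GGAA, the core that ETS factors bind, or its complement TTCC; this motif was chosen after the windows were seen.
Fgf4: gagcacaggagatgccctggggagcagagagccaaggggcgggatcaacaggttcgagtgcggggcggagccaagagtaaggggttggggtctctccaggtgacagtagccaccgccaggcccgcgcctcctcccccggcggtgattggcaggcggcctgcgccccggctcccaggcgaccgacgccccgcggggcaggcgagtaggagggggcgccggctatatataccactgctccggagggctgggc
Dusp6: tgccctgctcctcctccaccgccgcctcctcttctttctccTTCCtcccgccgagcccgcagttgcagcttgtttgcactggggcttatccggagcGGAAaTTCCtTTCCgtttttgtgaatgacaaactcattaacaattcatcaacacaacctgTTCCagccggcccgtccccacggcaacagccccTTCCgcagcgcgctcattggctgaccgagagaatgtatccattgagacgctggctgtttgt
The Dusp6 window holds GGAA 6 times on either strand, and the Fgf4 window, which is rich in G and C, holds none. The motif is so short that 96% of the 32851 mouse promoter windows of 300 bases (250 before to 50 after a start) hold it at least once. Promoter windows were at hand for 4 of the 8 genes, namely Fgf4, Dusp6, Spry2 and Etv5. In the 250 bases before the start, Spry2 holds GGAA 3 times. Etv5, which also had a probe set with all OHT+ arrays below the OHT- arrays, has 2 starts, with 0 and 4. A link between this count and the OHT differences was not tested. The longer ETS motif CCGGAA, which contains GGAA, occurs in the Spry2 window from base 34 to base 39 after the start and in 14.9% of all windows. The E-box CACGTG (7.15% of all windows) and the CArG box of serum response factor (1.63%) were not found in the windows of these 4 genes. These matches describe letters in a window and say nothing about binding in these cells.

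Over all 3 clones, the OHT comparison addresses how these genes stand after OHT treatment, which was given to deplete Rybp. The Fgf4 probe sets read higher with OHT in every clone, as did 3 of the 4 Spry4 probe sets and both Etv4 probe sets, while Egr1, Dusp6 and 2 of the 3 Etv5 probe sets read lower in every clone. None of the 20 passed the test. In limma with an intensity trend, adjusted over 45037 probe sets, 0 of 20 were called at an adjusted p of 0.05 (lowest 0.277), where 0.14% of all probe sets were called; 8 of 20 had an unadjusted p under 0.05, against 7.99% of all probe sets, 5 of them higher (4.03% of all) and 3 lower (3.96% of all). The 20 are not 20 independent readings, since probe sets share a gene and some share a target sequence. They were also chosen with earlier results of these data known, so the shares here and below describe them and are no test. Of the 20, 18 are above the dim limit, whereas the shares of all probe sets include dim ones. With dim probe sets left out, 2657 of the 27022 fitted had an unadjusted limma p under 0.05. The same direction in all 3 clones was seen for 13 of 20, against 31.3% of all probe sets; 9 were higher (15% of all) and 4 lower (16.2% of all). The 3 OHT+ arrays were all above the 3 OHT- arrays for 4 of 20 (6.13% of all probe sets) and all below for 2 of 20 (6.4%). The median difference was 0.12 over the 20 and -0.0073 over all probe sets; with the brightest probe set of each gene it was -0.10 over the 8 genes and -0.0031 over all 18193 genes. The whole-table count of 63 calls became 101 with the clone as a block, still with 0 of the 20 among them, and 0 without the intensity trend.

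**Figure D1:**
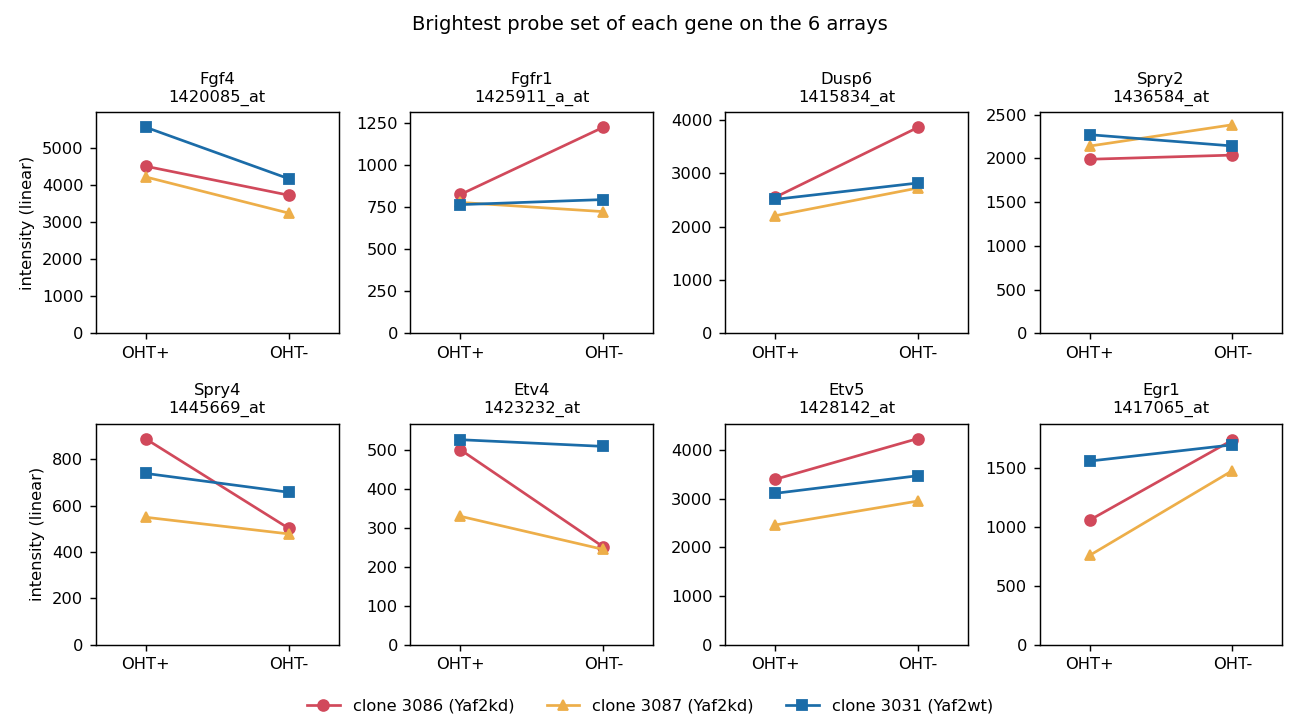
Linear intensity (vertical axes, from 0) of the brightest probe set of each of the 8 genes with OHT (left) and without it (right), 1 point per array and 1 line per clone. The lines of Fgf4 slope the same way in all 3 clones, from 4213 to 5552 with OHT against 3240 to 4166 without it, those of Dusp6, Etv5 and Egr1 slope the other way, and those of Spry2 are nearly flat.

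The ligand gene Fgf4 had the lowest p of the 8 genes. On probe set 1420085_at the OHT+ arrays of clones 3031, 3086 and 3087 read 5552, 4501 and 4213, and the OHT- arrays of the same clones read 4166, 3722 and 3240. The groups did not overlap, although the lowest OHT+ array was only just above the highest OHT- array, because the level also differed between clones. The difference was 0.36 ± 0.09 (log2 ± SE; 1.28-fold, 95% interval 1.12 to 1.47; limma adjusted p 0.277). Probe set 1450282_at, which was designed from a RefSeq transcript record, read 1522, 1411 and 2059 with OHT and 1160, 1079 and 1299 without it, again with no overlap (0.48 ± 0.15, 1.40-fold, adjusted p 0.413; 0.31 without the treated array of clone 3087). Probe set 1420086_x_at, whose suffix marks probes that can cross-hybridise, gave 4979, 4206 and 3889 against 4141, 3439 and 3233, a difference of 0.27 ± 0.08 that was nearly the same in each clone (0.27, 0.29 and 0.27) but with overlapping groups. The dim probe set 1449729_at lay between 29.3 and 54.4 with OHT and between 13.5 and 31.9 without it. It was designed from the same sequence record as 1420085_at and 1420086_x_at, so these 3 do not stand for separate targets. The fibroblast marker sum was also higher with OHT in each clone, and its part in the Fgf4 and Spry4 values was not tested.

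The receptor gene Fgfr1 showed no common direction across the clones. On probe set 1425911_a_at the OHT+ arrays read 765, 826 and 778 and the OHT- arrays 795, 1225 and 724, in the order of clones 3031, 3086 and 3087. The untreated clone 3086 stood above the other 5 arrays, and the difference was -0.17 ± 0.18 (95% interval -0.57 to 0.23, log2). The 2 other Fgfr1 probe sets differed by -0.098 ± 0.16 and -0.17 ± 0.27, and in all 3 clone 3087 had a positive difference (0.10, 0.42 and 0.33), whereas clones 3031 and 3086 had negative ones. On 1424050_s_at the 95% interval ran from 0.731 to 1.19 as a fold, which takes in no difference as well as a moderate one in either direction.

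Among the feedback inhibitors, Dusp6 read 2510, 2548 and 2202 with OHT and 2817, 3858 and 2723 without it in clones 3031, 3086 and 3087. All OHT+ arrays were below all OHT- arrays, with clone 3086 untreated the highest. The difference was -0.36 ± 0.14 (0.781-fold, 95% interval 0.632 to 0.965; adjusted p 0.555), and it was smallest in the Yaf2wt clone (-0.17, against -0.60 and -0.31 in the Yaf2kd clones 3086 and 3087). Without the untreated array of clone 3086 it was -0.19. Spry2 did not follow. Its probe set 1436584_at read 2271, 1990 and 2141 with OHT and 2142, 2037 and 2385 without it, the narrowest range among the brightest probe sets of the 8 genes (0.26 log2 over the 6 arrays), and the difference of -0.035 ± 0.099 had a 95% interval of 0.837 to 1.14 as a fold. The other Spry2 probe set was dim, between 27.6 and 50.8 with OHT and between 5.94 and 40.9 without it, and gave no usable size.

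Spry4 went the other way from Dusp6 on 3 of its 4 probe sets. Probe set 1422021_at read 280, 358 and 314 with OHT and 233, 191 and 211 without it, with no overlap and a difference of 0.58 ± 0.19 (95% interval 1.12 to 2.01 as a fold; adjusted p 0.456). Probe set 1422020_at, designed from the same sequence, read 141, 187 and 142 against 120, 103 and 91.9, also without overlap (0.57 ± 0.27). The brightest Spry4 probe set, 1445669_at, read 739, 888 and 549 against 658, 502 and 478, and its difference of 0.40 ± 0.18 came largely from clone 3086 (0.82, against 0.17 and 0.20 in clones 3031 and 3087; 0.17 without the treated array of clone 3086). The fourth, 1440867_at, stood at 733, 567 and 506 with OHT and 707, 665 and 495 without it (-0.049 ± 0.15). The Spry4 probe sets therefore disagree, and the annotation does not say which part of the transcript each covers.

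**Figure D2:**
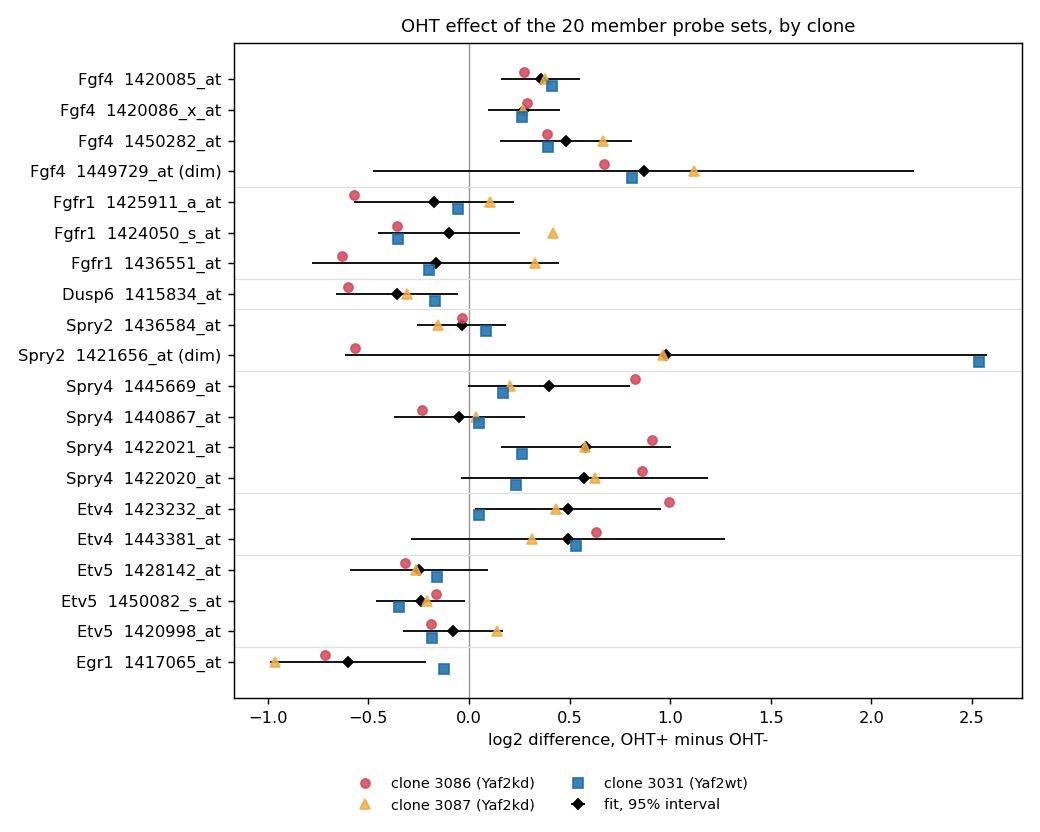
OHT effect (log2 difference, OHT+ minus OHT-) of the 20 probe sets, grouped by gene; coloured points are the 3 clones, and black diamonds with bars are the limma estimate over the clones with its 95% interval. The 4 Fgf4 rows lie right of 0 in every clone and the Egr1 and Dusp6 rows left of 0, while the clones of Fgfr1 and Spry2 fall on both sides.

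The related ETS genes Etv4 and Etv5 had differences of opposite sign. Etv4 on probe set 1423232_at read 526, 500 and 330 with OHT and 509, 251 and 244 without it in clones 3031, 3086 and 3087. The Yaf2wt clone hardly differed (0.048), and the Yaf2kd clones differed by 1.00 (3086) and 0.43 (3087), so the mean of 0.49 ± 0.21 (1.41-fold, 95% interval 1.02 to 1.94; adjusted p 0.597) covers unequal clones and was 0.26 without the treated array of clone 3086. On the weaker probe set 1443381_at the 3 clones were closer (0.53, 0.63 and 0.31), with 175, 104 and 63.0 against 121, 67.4 and 50.7, and the difference was 0.29 without that same array. Etv5 on 1450082_s_at read 1066, 1205 and 1115 with OHT and 1358, 1348 and 1290 without it, a complete separation of small size (-0.24 ± 0.10, 0.847-fold; adjusted p 0.592). The brightest Etv5 probe set, 1428142_at, gave almost the same difference (-0.25 ± 0.15) with overlapping groups, since clone 3086 read higher (3402 with OHT, 4244 without) than clone 3087 (2462 and 2956) under both conditions. Its difference was -0.086 without the untreated array of clone 3086, -0.10 without the treated array of clone 3087 and -0.38 without the untreated array of clone 3087, whereas that of 1450082_s_at stayed between -0.29 and -0.19. The remaining one, 1420998_at, was at -0.079 ± 0.11.

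The immediate early gene Egr1 had the largest OHT difference among the brightest probe sets of the 8 genes. It read 1559, 1057 and 757 with OHT and 1697, 1738 and 1478 without it in clones 3031, 3086 and 3087. The untreated arrays were close together (1638 ± 140, n = 3), while the treated ones spread out (1124 ± 405, n = 3): the treated Yaf2wt array was still above the untreated array of clone 3087. The difference was -0.60 ± 0.17 (0.659-fold, 95% interval 0.503 to 0.863; adjusted p 0.376), and it was -0.40 without the treated array of clone 3087.

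The OHT effect within the Yaf2kd cells asks the same where Yaf2 is reduced, with 2 arrays against 2, all of which are also part of the comparison above. Egr1 read 1057 and 757 with OHT and 1738 and 1478 without it, a difference of -0.84 ± 0.19 (0.558-fold, 95% interval 0.415 to 0.752; limma adjusted p 0.624). With the clone as a block its adjusted p was 0.0872. Etv4 read 500 and 330 against 251 and 244 (0.71 ± 0.25, adjusted p 0.759; 0.41 without the treated array of clone 3086), and Fgf4 on 1450282_at 1411 and 2059 against 1079 and 1299 (0.53 ± 0.20, adjusted p 0.799; 0.80 without the treated array of clone 3086 and 0.25 without that of clone 3087). Spry4 on 1422021_at differed by 0.74 ± 0.24 (limma adjusted p 0.749), Dusp6 by -0.45 ± 0.18 (adjusted p 0.810), and the 2 brighter Fgf4 probe sets by 0.33 ± 0.12 and 0.28 ± 0.11. Of the 20 probe sets 0 were called, where 0.0377% of all probe sets were, and 7 had an unadjusted p under 0.05, against 6% of all. The whole-table count of 17 calls became 51 with the clone as a block, with 0 of the 20 called.

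In the Yaf2wt clone, 1 array against 1 with no replicate, Egr1 differed by -0.12, Dusp6 by -0.17 and Fgf4 by 0.39 on 1450282_at and 0.41 on 1420085_at. Etv4 differed by 0.048 on 1423232_at and by 0.53 on 1443381_at, where the Yaf2kd cells gave 0.47 ± 0.46. The difference of the OHT effects between Yaf2kd and Yaf2wt cells was -0.72 ± 0.32 for Egr1 (unadjusted p 0.0565, adjusted p 1) and 0.67 ± 0.43 for Etv4 on 1423232_at (unadjusted p 0.158, adjusted p 1), against -0.060 ± 0.81 on its other probe set. Without the treated array of clone 3087 the Egr1 value was -0.48, and without that of clone 3086 the Etv4 value was 0.36. For Fgf4 on 1450282_at the difference of the OHT effects was 0.13 ± 0.34, for Spry4 on 1422021_at 0.48 ± 0.41 and for Dusp6 -0.29 ± 0.31. None of the 20 was called, nor was any other probe set (0%), and 0 of the 20 had an unadjusted p under 0.05, against 2.39% of all. The 95% interval for Egr1 ran from -1.46 to 0.025, which takes in both no dependence of the OHT difference on Yaf2 status and a strong one.

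The Yaf2 effect, adjusted for OHT, sets the 4 Yaf2kd arrays against the 2 Yaf2wt arrays. Etv4 was lower in the Yaf2kd cells on both probe sets with no overlap. Such a separation was not rare: 9% of all probe sets had all Yaf2kd arrays below the Yaf2wt arrays, and 9.16% had them all above. Probe set 1423232_at read 500 and 330 (OHT+) and 251 and 244 (OHT-) in the Yaf2kd clones 3086 and 3087, against 526 (OHT+) and 509 (OHT-) in the Yaf2wt clone. The gap was wide without OHT (-1.04) and narrower with it (-0.37), and the adjusted difference was -0.71 ± 0.22 (0.613-fold, 95% interval 0.436 to 0.860; adjusted p 0.417), or -0.37 without the untreated Yaf2wt array. Probe set 1443381_at read 104, 63.0, 67.4 and 50.7 against 175 and 121 in the same order, a difference of -1.08 ± 0.37 (0.474-fold; adjusted p 0.464), although 1 of its Yaf2kd arrays was under the dim limit. Its relative Etv5 was not lower: 1420998_at was above the Yaf2wt arrays on every Yaf2kd array (924, 1037, 1055 and 943 against 781 and 889; 0.25 ± 0.12, adjusted p 0.587), and the 2 brighter Etv5 probe sets differed by -0.040 ± 0.16 and 0.039 ± 0.11.

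Of the other genes, Fgf4 was lower in the Yaf2kd cells on the probe sets 1420085_at (-0.31 ± 0.09, adjusted p 0.404) and 1420086_x_at (-0.31 ± 0.09, adjusted p 0.374), within both OHT states, but not on 1450282_at (0.096 ± 0.16). On the first, the Yaf2kd arrays read 4501, 4213, 3722 and 3240 and the Yaf2wt arrays 5552 and 4166, so a treated Yaf2kd culture and the untreated Yaf2wt culture were at about the same level. Spry4 on 1440867_at, the probe set with the smallest OHT difference of the 4, read 567, 506, 665 and 495 against 733 and 707 (-0.38 ± 0.15, adjusted p 0.531), with no overlap. Its other 3 probe sets overlapped and differed by between -0.25 and 0.023. Egr1 was at 1258 ± 436 on the Yaf2kd arrays (SD, n = 4, 2 clones) and 1628 ± 97.6 on the Yaf2wt arrays (SD, n = 2, 1 clone). These SDs mix both OHT states and are not a spread between replicates. The Egr1 difference of -0.44 ± 0.18 (limma adjusted p 0.538) was -0.80 with OHT and -0.082 without it. Over both states it was -0.29 without the treated array of clone 3087. Dusp6 (0.060 ± 0.14), Spry2 on 1436584_at (-0.048 ± 0.10) and the 3 Fgfr1 probe sets (0.0011 to 0.23) differed by no more than about 1 SE.

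**Figure D3:**
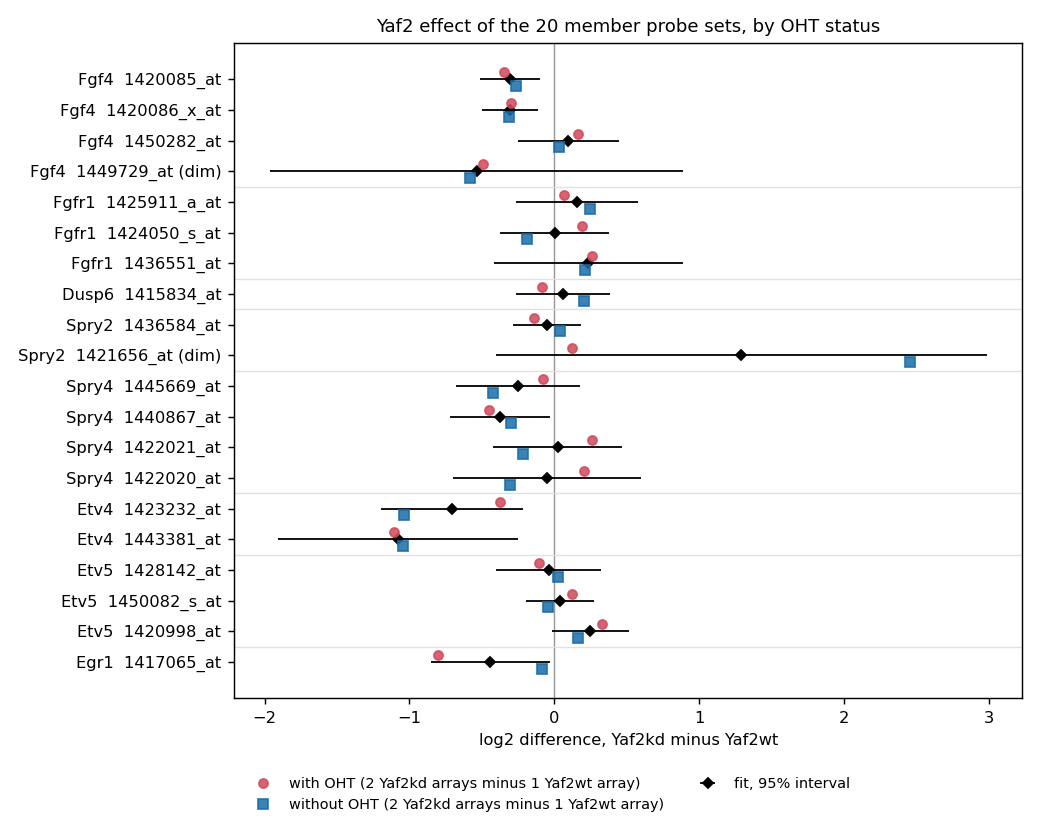
Yaf2 effect (log2 difference, Yaf2kd minus Yaf2wt) of the 20 probe sets; red points are the difference among the OHT+ arrays, blue squares that among the OHT- arrays, and black diamonds with bars the limma estimate adjusted for OHT with its 95% interval. Both Etv4 rows lie left of 0, at -0.71 and -1.08, and Egr1 lies at -0.80 with OHT and at -0.082 without it.

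Over the 20 probe sets limma called 0 in the Yaf2 effect (lowest adjusted p 0.374), where it called 0% of all probe sets. The lowest adjusted p of the whole table was 0.163, on a Yaf2 probe set, so the fit did not call the reduced gene itself. The absence of calls among the 20 therefore does not show that they were unchanged. Of the 20, 6 had an unadjusted p under 0.05, against 8.95% of all; 6 were lower in the Yaf2kd cells (4.37% of all; 2 of Fgf4, 2 of Etv4, 1 of Spry4 and 1 of Egr1) and 0 higher (4.58% of all). The Yaf2kd arrays were all below the Yaf2wt arrays for 3 of 20 (9% of all probe sets) and all above for 1 of 20 (9.16%). Among probe sets above the dim limit these were 3 of 18 members (10.6% of all such probe sets) and 1 of 18 (10.5%). The median was -0.044 over the 20 and 0.0020 over all probe sets; with the brightest probe set of each gene it was -0.15 over the 8 genes and 0.035 over all genes. The fibroblast marker sum was higher on the Yaf2kd arrays too (5885 to 8402, against 4448 to 5465 on the Yaf2wt arrays), and its part in these values was not tested.

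Combined loss sets the 2 Yaf2kd OHT+ arrays against the Yaf2wt OHT- array. Egr1 read 1057 and 757 against 1697, and those Yaf2kd OHT+ arrays were its lowest of all 6 (-0.92 ± 0.23, 0.527-fold, 95% interval 0.366 to 0.759; adjusted p 0.712). Etv4, whose OHT and Yaf2 differences have opposite signs, read 500 and 330 against 509 (-0.33 ± 0.30), and Fgf4 on 1450282_at 1411 and 2059 against 1160 (0.55 ± 0.24). The 2 brighter Fgf4 probe sets hardly differed, at 0.064 ± 0.15 (1420085_at) and -0.034 ± 0.14 (1420086_x_at). The dim 1449729_at was at 0.32 ± 0.96. With clone 3086 or 3087 alone the Etv4 difference was -0.025 or -0.63, and the Fgf4 difference on 1450282_at was 0.28 without clone 3087. Of the 20 probe sets 0 were called, against 0.00444% of all, and 2 had an unadjusted p under 0.05, against 6.11% of all. The second of these was the dim Spry2 probe set.

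The wider pathway was read from a list of 94 other FGF-ERK genes, of which 85 were measured, each by its brightest probe set. Under OHT 1 of the 85 passed, against 0.214% of all genes. It was Dusp9, which encodes a further ERK phosphatase and is expressed in embryonic stem cells. Dusp9 on 1454737_at read 2394, 2886 and 2450 with OHT and 1540, 1403 and 1332 without it in clones 3031, 3086 and 3087, a complete separation. The 2 other Dusp9 probe sets, 1433844_a_at and 1433845_x_at, rose by 0.97 and 0.88 (limma adjusted p 0.0270 and 0.0225). They were designed from the same sequence record as 1454737_at, so they do not stand for separate targets. The suffix of 1433845_x_at also marks probes that can cross-hybridise. On 1454737_at Dusp9 rose by 0.85 ± 0.11 (1.80-fold; limma adjusted p 0.0193). Its adjusted p was 0.0599 to 0.159 when any 1 array was left out, with a difference between 0.75 and 0.96, and 0.539 without the intensity trend. Dusp9 thus rose with OHT while Dusp6, also an ERK phosphatase gene, read lower on every OHT+ array without passing.

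The other highest differences above the dim limit did not pass, although the first 2 were slightly larger than that of Dusp9. They were those of Klf4 (0.90 ± 0.17, adjusted p 0.133) and Tfcp2l1 (0.87 ± 0.16, adjusted p 0.119), naive-state transcription factor genes that ERK activity lowers, and of the ligand gene Fgf15 (0.69 ± 0.24, adjusted p 0.495). The lowest were Otx2 (-0.78 ± 0.15, adjusted p 0.134), a factor of the primed epiblast, Sos2 (-0.73 ± 0.17), a RAS exchange factor gene, Srf (-0.57 ± 0.14), the serum response factor gene, and Junb (-0.53 ± 0.13), an immediate early gene. Each of these 7 had the same direction in all 3 clones. With 1 clone left out some calls changed: Klf4, Tfcp2l1 and Otx2 passed without clone 3086, and Klf4 and Tfcp2l1 without clone 3087. Those fits hold 1 array in each of the 4 groups, and the whole-table count of calls rose in them as well. Klf4, Tfcp2l1 and Otx2 did not pass when any 1 array was left out. Without the intensity trend their limma adjusted p was 0.694, 0.688 and 0.661. Klf4 read 5442, 4628 and 2723 with OHT and 3104, 1704 and 2008 without it, with overlapping groups, and Otx2 read 514, 518 and 470 against 807, 750 and 1039, without overlap. By class, the median OHT difference was -0.11 over the 23 ETS and immediate early genes (8 higher, 15 lower), -0.076 over the 15 feedback inhibitors (5 higher, 10 lower), -0.057 over the 17 adaptor and relay genes, 0.13 over the 10 receptors and co-factors, -0.062 over the 10 ligands and 0.26 over the 11 cell state genes (7 higher, 4 lower). Without dim genes it was 0.13 for the cell state genes, 0.22 for the receptors and co-factors, -0.16 for the ligands, of which 5 of 10 were dim, and -0.13 for the ETS and immediate early genes. With 1 gene in 2 classes, the median was -0.050 over all 85 and -0.0031 over all 18193 genes. At an unadjusted p under 0.05 there were 20 of the 85, 10 higher and 10 lower, against 10% of all genes. The cell state genes gave 7 of these, out of 11 (5 higher, 2 lower). The ligands gave 2 of 10, the receptors and co-factors 1 of 10 and the adaptor and relay genes 3 of 17. From the feedback inhibitors came 3 of 15, and from the ETS and immediate early genes 4 of 23.

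**Figure D4:**
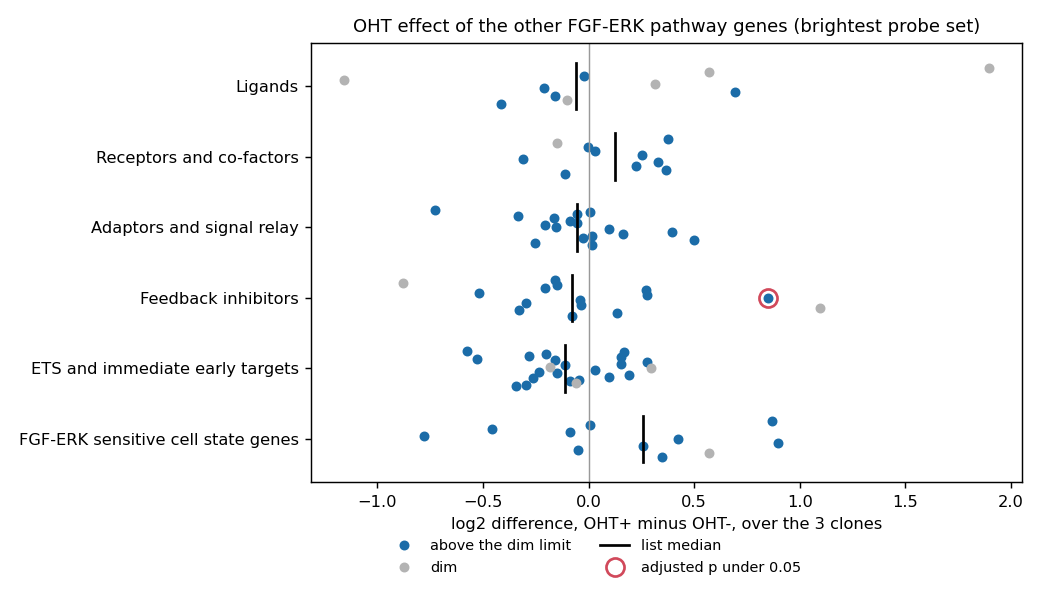
OHT effect (log2 difference, OHT+ minus OHT-) of the measured genes of the wider pathway list by class; each point is a gene, grey where it is dim, and the bar is the class median. The circled gene, Dusp9 at 0.85, is the 1 that passed the adjusted threshold.

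In the Yaf2 effect 0 of the 85 passed, as of all genes, Yaf2 itself among them (11 of 85 at an unadjusted p under 0.05, against 10.1% of all genes). The highest above the dim limit were the transcription factor gene Egr3 (0.80 ± 0.57), the receptor gene Fgfr2 (0.55 ± 0.18, adjusted p 0.438) and Phlda1 (0.50 ± 0.17), and the lowest were the receptor gene Pdgfra (-0.68 ± 0.41), Klf4 (-0.68 ± 0.18, adjusted p 0.353) and the ligand gene Fgf3 (-0.45 ± 0.52). The Egr3, Pdgfra and Fgf3 signals were faint, with a mean over the 6 arrays of 104, 88.7 and 83.7. The median was 0.067 over the 85 and 0.035 over all genes.

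Etv4 and Egr1 were the members whose brightest probe set varied by at least 1 log2 unit over the 6 arrays (1.11 and 1.20). Among 12657 other genes above the dim limit, the mean-centred profiles nearest to Etv4 were those of D430020J02Rik, the calcineurin subunit gene Ppp3cc and the lysosomal enzyme gene Sgsh, with root-mean-square differences of 0.11, 0.15 and 0.16 (log2, over 6 arrays). Sgsh, for example, read 98.4, 95.8 and 79.5 with OHT and 99.1, 56.7 and 59.2 without it. Although its mean was above the dim limit of 61.5, both untreated Yaf2kd arrays were under it. D430020J02Rik was under it on the same arrays (56.2 and 50.7), so these 2 profiles rest partly on faint signal. The nearest to Egr1 were Particl, the RNA-binding protein gene Rbmx and Stox2, at 0.075, 0.075 and 0.11. Rbmx read 790, 552 and 419 with OHT and 893, 821 and 720 without it. Particl was under the dim limit on the treated array of clone 3087 (55.6). The likeness is a description over 6 arrays that share clones and treatment.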

How the data were processed

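The authors deposited 1 table of linear intensity values for 45101 probe sets on 6 arrays; Affymetrix Expression Console and RMA were used in some role, per the submitters' processing notes. The deposited values run from 0.14 to 45795 with a median of 102, and the sorted values are identical on every array, as quantile normalization leaves them. Log2 of the intensity was taken with no offset. After removal of 64 control probe sets, 45037 were fitted with lmFit and eBayes with an intensity trend (limma 3.58.1, R 4.3.3), since the median replicate SD was 0.87 (log2) for dim probe sets and 0.21 for the others. Benjamini-Hochberg adjustment ran over all 45037, with calls at 0.05. The Yaf2 effect and the OHT effect of all 3 clones came from a model of both factors (3 residual degrees of freedom), the others from a model of the 4 groups (2), in which the spread of the Yaf2kd groups stands in for that of the single Yaf2wt arrays. The spread behind the p-values is that between 6 arrays of 3 clones, and their number limits the precision. Neither model has a clone term, so the main fits treat the 2 arrays of a clone as independent.

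A gene with several probe sets was represented in the wider list by its brightest, and 34945 of the fitted probe sets had 1 gene symbol, 932 several and 9160 none. All member probe sets are named; of the wider list the rule took the 4 highest and 4 lowest OHT differences and the 3 highest and 3 lowest Yaf2 differences above the dim limit, and 9 of its 94 genes were not analysed here. For likeness it took the 3 nearest genes. Members, lists, tests and the use of the trend were chosen with earlier results of these data known. Both arrays of a clone come from the same cell line, so the clone is a pairing by design; deviations of same-clone Yaf2kd arrays correlated with r 0.031 over all probe sets and 0.12 over those that are not dim. The fits were tested on simulated data with independent arrays, no clone effect and known OHT differences only. That simulation cannot show how the fits behave with shared clones or with a real Yaf2 difference. Alternatives were the fit without the trend, the brightest probe set per gene, dim probe sets left out, log2(intensity + 32), robust eBayes, the clone as a block, and each array or clone left out.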

Additional observations from a re-analysis of the deposited data

How the results depend on the processing

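The call on the members did not depend on these choices: 0 of the 20 probe sets passed in any of the 5 comparisons under any alternative run. Of 605 member values under alternatives 575 kept the sign of the main value and 30 did not. They cover the 20 probe sets for the OHT effect over the 3 clones and for the Yaf2 effect. In the other comparisons they cover only 1 probe set each of Egr1, Etv4 and Fgf4. It was the one above the dim limit with the largest OHT difference in Yaf2kd cells, which favours a kept sign. Leaving out the trend, robust eBayes, the brightest probe set per gene and leaving out dim probe sets change no estimate, so they could not turn a sign. Nor did the clone block change the OHT estimates over the 3 clones. For these, the runs without either array of clone 3031 and without that clone gave the same estimate. The number of calls over the whole table did depend on the processing choices. For the OHT effect over the 3 clones it was 63, and 0 with no intensity trend, 101 with the clone as replicate block, 14 to 53 with 1 array left out, 18 without clone 3031, 205 without clone 3086 and 293 without clone 3087. For the OHT effect in Yaf2kd cells it was 17, and 0 with no trend, 10 with the brightest probe set of each gene, 30 with dim probe sets left out, 6 with log2(intensity + 32), 51 with the replicate block and 0 to 17 with 1 array left out. For the combined loss it was 2, and 0 with no trend, 4 with the brightest probe set, 13 with dim probe sets left out, 0 with log2(intensity + 32) and 0 to 7 with 1 array left out. The Yaf2 effect had 0 calls and 0 to 8 with 1 array left out, the 8 without the untreated array of clone 3086. The causes were not tested. The replicate block changed no call of a member; it could not be fitted for the combined loss.

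Signs turned in members with small differences. With 1 array left out, the OHT effect ranged from -0.37 to 0.061 for Fgfr1 1425911_a_at, -0.26 to 0.030 for Fgfr1 1424050_s_at, -0.095 to 0.047 for Spry2 1436584_at and -0.16 to 0.088 for Spry4 1440867_at. Without clone 3086 it was 0.025, 0.032 and 0.066 for Fgfr1 1425911_a_at, 1424050_s_at and 1436551_at and 0.042 for Spry4 1440867_at; without clone 3031 it was 0.030 for Fgfr1 1424050_s_at, and without clone 3087 it was 0.025 for Spry2 1436584_at. The Yaf2 effect with 1 array left out ranged from -0.030 to 0.20 for Fgf4 1450282_at, -0.020 to 0.31 for Fgfr1 1425911_a_at, -0.19 to 0.19 for Fgfr1 1424050_s_at, -0.083 to 0.20 for Dusp6, -0.14 to 0.041 for Spry2 1436584_at, -0.22 to 0.26 and -0.31 to 0.21 for Spry4 1422021_at and 1422020_at, and -0.16 to 0.070 and -0.043 to 0.12 for Etv5 1428142_at and 1450082_s_at. The difference of the OHT effects for Fgf4 1450282_at ranged from -0.14 to 0.41. Dim and second probe sets have no value where the alternative leaves them out. Faint signal limits Fgf4 1449729_at and Spry2 1421656_at, which lay under the dim limit on every array.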
